A study of Acomys cahirinus and Mus musculus with 10 samples.

Results

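Interferon-stimulated genes were followed through ear-hole healing in *Acomys cahirinus*, the spiny mouse that regenerates the punched tissue, and *Mus musculus*, the house mouse, which heals it with scar tissue. The set was a list of 37 mouse symbols, taken by name from among 24092 *M. musculus* gene numbers and 676820 components of the assembled *A. cahirinus* transcriptome. An *M. musculus* value was found for all 37. An *A. cahirinus* component was found for 35, none for *Oas2* and *Cxcl10*, and the 35 shared 31 distinct components.

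The series held 10 groups, 1 per species and day. Uninjured ear tissue was taken at D0 in both species, and ear tissue labelled regenerating (*A. cahirinus*) or fibrotic (*M. musculus*) at D5, D10, D15 and D20 after an ear punch. The *M. musculus* were CD1, an outbred laboratory strain, and no strain is named for *A. cahirinus*. All animals were sexually mature females, and the methods give 3 animals per group. The tissue was a ring of ear near the healing margin, a mixture of epidermis, dermis, cartilage and infiltrating cells. No group carries an engineered allele or a drug in its labels. D0 served as the shared reference for the 4 later days of its species.

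Interferons are secreted proteins that cells release when they sense foreign or misplaced nucleic acid, and that activated T and NK cells release during inflammation. They bind receptors that signal through Janus kinases to transcription factors, among them STAT2 and IRF9, which switch on a broad group of genes. The products of these genes sense viral RNA and DNA, block viral replication, attach the ubiquitin-like protein ISG15 to other proteins, attack the membranes of intracellular pathogens and attract T cells. In skin, the same group can be induced by tissue damage without infection, through nucleic acid freed from injured cells.

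The *A. cahirinus* values rest on assembled sequence matched to mouse transcripts, so the match decides what was measured. The components aligned to their mouse genes with an identity of 82.8% to 91.0%. Coding stretches of *Isg15* and *Cxcl9*, which were called at D5 in *M. musculus* and not in *A. cahirinus*, are shown so that the match behind such a contrast can be seen. The *Isg15* stretch covers 138 coding bases of exons 1 and 2, at chr4:156199932-156200708 on the minus strand of GRCm38 with the intron left out, and differs at 9 bases (93.5% identity). The *Cxcl9* stretch covers 240 coding bases of exons 1 to 3, at chr5:92325097-92328023 on the minus strand of GRCm38 with the introns left out, and differs at 43 bases (82.1% identity). Over the whole alignment the match was 85.15% identical for *Isg15* (330 bases) and 84.9% for *Cxcl9* (384 bases), so the printed *Isg15* stretch is closer than its match as a whole. Each begins at the start codon, and capitals mark the bases that differ between the species.
Isg15 M. musculus: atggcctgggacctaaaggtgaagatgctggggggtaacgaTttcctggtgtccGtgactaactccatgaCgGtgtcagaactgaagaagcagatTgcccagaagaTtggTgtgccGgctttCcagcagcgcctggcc
Isg15 A. cahirinus: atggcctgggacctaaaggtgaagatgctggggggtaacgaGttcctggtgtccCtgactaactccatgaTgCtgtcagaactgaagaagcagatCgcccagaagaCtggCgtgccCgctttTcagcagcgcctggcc
Cxcl9 M. musculus: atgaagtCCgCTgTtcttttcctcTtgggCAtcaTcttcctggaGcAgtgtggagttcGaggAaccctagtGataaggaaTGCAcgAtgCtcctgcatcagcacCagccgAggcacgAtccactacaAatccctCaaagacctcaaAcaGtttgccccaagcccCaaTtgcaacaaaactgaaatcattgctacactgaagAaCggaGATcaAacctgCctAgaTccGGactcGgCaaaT
Cxcl9 A. cahirinus: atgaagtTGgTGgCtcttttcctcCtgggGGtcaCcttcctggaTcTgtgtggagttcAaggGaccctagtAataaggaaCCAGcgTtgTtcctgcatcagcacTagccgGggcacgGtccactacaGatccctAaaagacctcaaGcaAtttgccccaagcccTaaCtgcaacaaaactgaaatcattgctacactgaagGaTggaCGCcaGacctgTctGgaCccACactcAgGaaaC

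For 27 of the 35 members the component's own best mouse hit was the member. For the other 8 it was not. The component of *Irf9* had *Rnf31* as its best hit, that of *Xaf1* had *Tmem203*, and that of *Oas3* had *Cyp51* with only 113 bases aligned to *Oas3*. *Ifit2* and *Ifit3* shared a component whose best hit was *Ifit3b*. *Mx1* shared the component of *Mx2*, *Gbp3* that of *Gbp7* and *Gbp5* that of *Gbp2*. In counts of components a shared one was counted once, and values of the paralogs in both species may mix reads of near-identical copies, among them *Oas1a* with *Oas1g* and *Ifit1* with its neighbours.

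Values below are group means in normalized counts, recovered from the deposited fold changes. On the scale of the D5 table, to which all means were set, the means of all features summed to 7440295 to 7993235 per group in *M. musculus* and 14201880 to 16318349 in *A. cahirinus*. The species were scaled separately. A mean of 10 over 3 libraries corresponds to 30 reads, with a counting error of 18.3%. Values of single animals were not analysed here, so no SD is given and whether animals of different groups overlapped cannot be said. The replicate error enters through the deposited posterior probability of differential expression (PPDE), which weighs the change against the spread between animals. A member was called at a PPDE of at least 0.95, and "rose" and "fell" are used for called changes alone. A PPDE given as 0 stands for a very small value that need not be exactly 0. The low means at D15 in *A. cahirinus* moved in the steps of 2 single reads, as for a mean over 2 libraries, where the other 9 groups showed 3. The number of animals behind that group is therefore in doubt and was not tested. All 37 *M. musculus* members and 29 of 31 components reached a mean of 10 in some group, the exceptions being the *A. cahirinus* components of *Cxcl9* and *Zbp1*.

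In *M. musculus* most of the interferon-stimulated genes rose at D5, and none was called higher at D20. At D5, 27 of 37 members rose (73.0%), against 16.5% of all gene numbers, and none fell, against 13.6%. All 37 had a mean above D0, and the median log2 fold change was 1.65, compared with -0.10 over all gene numbers. At D10, 3 members rose (8.11%, against 15.1%) and none fell (against 14.1%). At D15, 12 rose (32.4%, against 13.2%) and none fell (against 12.5%). The medians were 0.82 and 0.75 on those days, with 33 of 37 members above D0 on each. By D20 none rose (against 12.3%), 2 fell (5.41%, against 11.9%), and the median was 0.11. The highest of the 5 group means was at D5 for 34 of 37 members.

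In *A. cahirinus* 11 of 31 components rose at D5, and from D10 the group means lay mostly below D0. The D5 share was 35.5%, against 30.4% of the components picked in the same way for all mouse genes, so it was near the background. None fell at D5, against 11.1%. At D10, 2 rose (6.45%, against 21.0%) and 3 fell (9.68%, against 11.4%). At D15, 2 rose (6.45%, against 18.2%) and 1 fell (3.23%, against 14.2%). At D20 none rose (against 12.7%) and 4 fell (12.9%, against 14.7%). The median log2 fold changes were 0.55, -0.07, -0.09 and -0.43 from D5 to D20, beside 0.21, 0.10, 0.04 and -0.03 over all picked components. Components above D0 numbered 27, 12, 12 and 4 of 31. The highest group mean was at D5 here too, for 29 of 35 members with shared components counted for each. D20 held the lowest group mean for 15 of 31 components, compared with 14 of 37 genes in *M. musculus*, where D0 was the lowest group for 22.

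**Figure D1:**
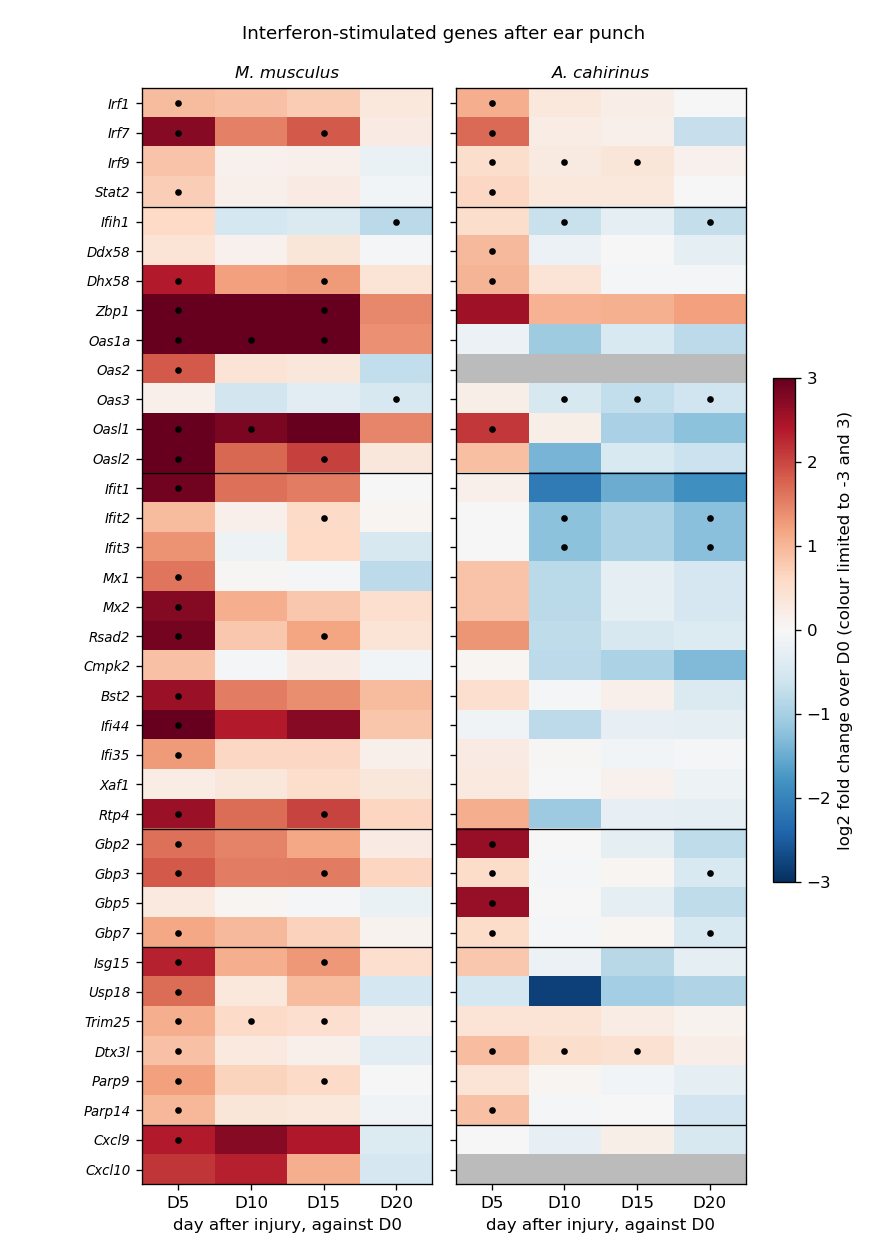
Log2 fold change over D0 of the 37 genes (rows, grouped by role) at D5, D10, D15 and D20 in *M. musculus* (left) and *A. cahirinus* (right). Red is higher and blue lower than D0, colours stop at -3 and 3, a dot marks a PPDE of at least 0.95, grey marks no component, and members that share a component have the same *A. cahirinus* row. The *M. musculus* panel is red in every row at D5, and the *A. cahirinus* panel is mostly blue from D10.

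**Figure D2:**
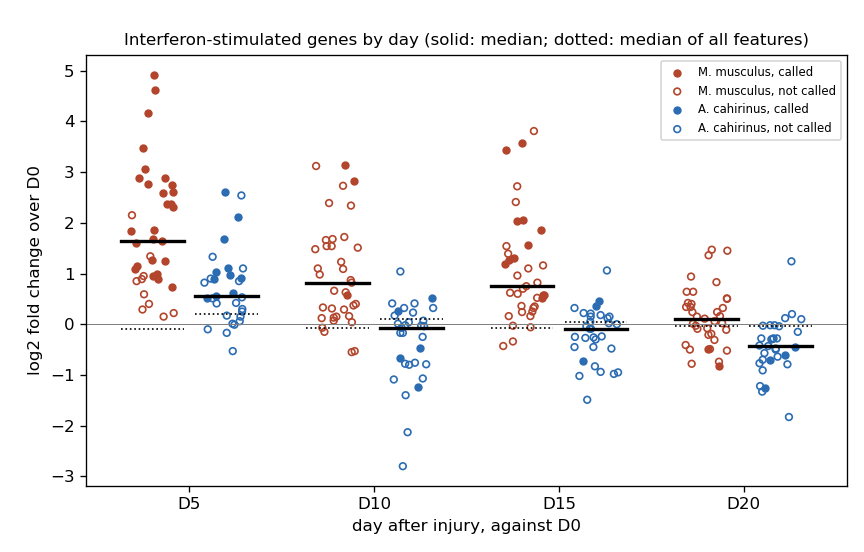
Each point is the log2 fold change over D0 (y axis) of 1 gene or distinct component on 1 day (x axis), filled where the PPDE was at least 0.95. Solid bars are the medians of these genes (at D5, 1.65 for *M. musculus* and 0.55 for *A. cahirinus*) and dotted bars the medians of all features.

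Of the 4 transcription factors, 3 rose at D5 in *M. musculus* (against 16.5% of all gene numbers), and all 4 components rose in *A. cahirinus* (against 30.4% of picked components), 1 of them best matched to another gene. *Irf7*, the factor that amplifies interferon production, had means of 29.8, 199, 84.9, 108 and 35.1 at D0, D5, D10, D15 and D20 in *M. musculus*, with a 6.67-fold rise at D5 (PPDE 1.0) and a 3.61-fold rise at D15 (PPDE 0.998). *Irf7* in *A. cahirinus* had means of 93.0, 300, 109, 103 and 57.3, and it rose 3.23-fold at D5 alone (PPDE 1.0). Both species peaked at D5, and in *M. musculus* the D15 mean stood above the D10 mean. *Irf1*, which acts early and downstream of interferon-gamma, had means of 130, 254, 238, 219 and 163 in *M. musculus* and rose 1.95-fold at D5. Its means in *A. cahirinus* were 106, 226, 132, 122 and 104, with a rise of 2.14-fold at D5. The D5 changes of *Irf1* were thus of like size, and the *M. musculus* means stayed high longer without passing the threshold (PPDE 0.206 at D10 and 0.914 at D15).

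*Stat2* and *Irf9* encode proteins of the complex that binds interferon-responsive promoters. *Stat2* rose 1.66-fold at D5 in *M. musculus*, from 221 to 367, and 1.54-fold in *A. cahirinus*, from 204 to 313. Its later means lay within 1.25-fold of D0 in both species. *Irf9* had means of 222, 399, 242, 247 and 194 in *M. musculus* and passed the threshold on no day (PPDE 0.786 at D5). The component matched to *Irf9* in *A. cahirinus* rose 1.43-fold, 1.19-fold and 1.28-fold at D5, D10 and D15, with the limit given above that its own best hit was *Rnf31*.

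Among the 9 sensors of foreign nucleic acid, 6 rose at D5 in *M. musculus* (against 16.5%) and 3 of 8 components in *A. cahirinus* (37.5%, near the 30.4% of picked components). The 2 largest D5 ratios of the 37 members in *M. musculus* were in the oligoadenylate synthetase family. Only the catalytically active proteins of this family make, on binding double-stranded RNA, the messenger that activates RNase L. *Oas1a* had means of 3.08, 75.3, 27.2, 37 and 7.90 in *M. musculus*, a rise of 24.4-fold, 8.82-fold and 12-fold at D5, D10 and D15 (PPDE 1.0, 0.972 and 0.971). *Oas1a* in *A. cahirinus* had means of 46.8, 41.6, 22.3, 34.2 and 27.0, below D0 on all 4 days with no call (PPDE 0.0355 to 0.629). Its highest group was D0 in *A. cahirinus* and its lowest group was D0 in *M. musculus*, where the D0 mean had a counting error of 32.9%. The *A. cahirinus* component was also that of *Oas1b* and *Oas1g*.

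*Oasl1* and *Oasl2* encode family members with ubiquitin-like ends. *Oasl2* had means of 20.3, 170, 67.1, 84.1 and 25.8 in *M. musculus*, with a rise of 8.34-fold at D5 and of 4.14-fold at D15. The *Oasl2* means of 25.1, 46.9, 9.52, 18.3 and 16.1 in *A. cahirinus* passed the threshold on no day. *Oasl1* averaged 0.763, 23.5, 5.48, 10.8 and 2.14 in *M. musculus*, where D0 amounted to about 2 reads in all. Its 30.4-fold rise at D5 therefore had an exact 95% counting interval of 8.30 to 260, and its 7.11-fold rise at D10 one of 1.84 to 63.3. At D15 the ratio of 14.0 had a PPDE of 0. *Oasl1* in *A. cahirinus* had means of 15.9, 68.8, 17.9, 8.06 and 6.83 and rose 4.33-fold at D5, so it was the one of the 4 family members with values in both species that rose in both. *Oas2*, measured in *M. musculus* alone, rose 3.55-fold at D5, from 25.1 to 88.9.

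*Oas3* was the exception in this family. Its *M. musculus* means of 139, 154, 94.6, 110 and 99.4 held no rise, and at D20 it fell to 0.717 of D0 (PPDE 0.998). The component matched to it in *A. cahirinus* had means of 3697, 4151, 2662, 2227 and 2433 and fell at D10, D15 and D20, but that match covered 113 bases of a component best matched to *Cyp51*, and the values may not be those of *Oas3*.

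The cytoplasmic RNA helicases differed among themselves. *Dhx58*, which encodes the regulator LGP2, averaged 14.1, 73.4, 33.0, 33.9 and 18.8 in *M. musculus*, rising 5.21-fold at D5 and 2.41-fold at D15. In *A. cahirinus* its means were 28.1, 57.5, 37.2, 27.3 and 27.6, with a rise of 2.05-fold at D5. *Ddx58*, the gene of the sensor RIG-I, rose 1.98-fold at D5 in *A. cahirinus*, from 124 to 245, and was 1.32-fold above D0 in *M. musculus*, from 201 to 265, with a PPDE of 0. *Ifih1*, the gene of the sensor MDA5, fell at D20 in both species, as did *Oas3* and its doubtful component, to 0.566 of D0 in *M. musculus* (193 to 109) and to 0.612 in *A. cahirinus* (134 to 82.0), with a PPDE of 1.0 in each. It had also fallen to 0.633 at D10 in *A. cahirinus*. *Zbp1*, a sensor of Z-form nucleic acid that can trigger necroptosis, averaged 2.97, 53.2, 25.8, 32.1 and 8.12 in *M. musculus*, where it rose 17.9-fold at D5 and 10.8-fold at D15. Its *A. cahirinus* means lay between 1.5 and 8.79, under the mean of 10 and with no call. The highest of them was at D5, 5.83-fold above D0 (PPDE 0.913).

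Of the 12 antiviral effectors 8 rose at D5 in *M. musculus* (against 16.5%), and none of their 10 components rose in *A. cahirinus* (against 30.4%). *Ifit1*, which binds viral RNA lacking the host cap modification, averaged 15.0, 111, 47.2, 43.4 and 15.1 in *M. musculus* and rose 7.42-fold at D5. In *A. cahirinus* its means were 102, 113, 23.4, 36.4 and 28.8, with no call on any day (PPDE 0.902 at D10, at 0.228 of D0). D0 and D5 were the high groups in *A. cahirinus*, and D5 stood alone in *M. musculus*. *Ifit2* and *Ifit3*, relatives of *Ifit1*, had D5 ratios of 1.94 and 2.52 in *M. musculus* that missed the threshold (PPDE 0.895 and 0.836), and *Ifit2* rose 1.5-fold at D15. Their shared component in *A. cahirinus* had means of 127, 126, 53.5, 65.8 and 53.3 and fell to 0.422 of D0 at D10 and to 0.421 at D20.

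*Rsad2* encodes viperin, a radical enzyme that makes a chain-terminating nucleotide, and *Cmpk2* lies beside it in the genome and supplies nucleotides to mitochondria. *Rsad2* averaged 11.6, 85.2, 20.4, 26.4 and 15.3 in *M. musculus*, rising 7.37-fold at D5 and 2.28-fold at D15. Its *A. cahirinus* means were 8.88, 22.4, 5.25, 6.37 and 6.63, and the 2.52-fold ratio at D5 had a PPDE of 0.901. *Cmpk2* had no call in either species. Its D5 ratio was 1.85 in *M. musculus* (PPDE 0.892) and 1.04 in *A. cahirinus*, and its D20 ratio in *A. cahirinus* was 0.399 with a PPDE of 0.

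The Mx proteins are dynamin-like GTPases that trap viral nucleocapsids. *Mx1* averaged 33.6, 102, 34.5, 32.9 and 19.6 in *M. musculus* and *Mx2* averaged 7.96, 54.0, 17.1, 14.1 and 11.3, which were rises of 3.05-fold and 6.78-fold at D5. Their shared component in *A. cahirinus* averaged 687, 1237, 396, 571 and 487. Although its D5 mean was 1.80-fold above D0, the PPDE was 0.00170, and no later day was called.

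Of the remaining effectors, *Ifi44*, a GTPase-like inhibitor of virus spread, averaged 2.92, 32.6, 15.3, 19.3 and 5.19 in *M. musculus* and rose 11.1-fold at D5. In *A. cahirinus* it averaged 66.9, 62.5, 39.1, 56.7 and 55.2, below D0 on all 4 days with a PPDE of 0 on each. *Bst2*, the gene of tetherin, which holds budding virus on the cell surface, rose 5.98-fold at D5 in *M. musculus* (19.6 to 117) and had a ratio of 1.42 in *A. cahirinus* (85.5 to 122, PPDE 0.469). *Rtp4* rose 6.08-fold at D5 and 4.09-fold at D15 in *M. musculus*, from 14.1 to 85.5 and 57.5, and had a D5 ratio of 2.14 in *A. cahirinus* (53.4 to 114, PPDE 0.918). *Ifi35*, a partner of NMI, rose 2.41-fold at D5 in *M. musculus* (58.2 to 140) and went from 118 to 140 in *A. cahirinus* with a PPDE of 0. *Xaf1*, a pro-apoptotic member, was called in neither species on any day.

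Guanylate-binding proteins, the large GTPases that respond most strongly to interferon-gamma, rose at D5 in 3 of 4 cases in *M. musculus* (against 16.5%), and both distinct components rose in *A. cahirinus* (against 30.4%). *Gbp2* averaged 53.5, 328, 53.8, 44.7 and 31.5 in *A. cahirinus*, a 6.12-fold rise at D5 (PPDE 1.0) with the D10 mean back at D0. In *M. musculus* it averaged 80.1, 251, 224, 179 and 94.4, a 3.14-fold rise at D5, and the 2.79-fold ratio at D10 had a PPDE of 0.146. *Gbp3* rose 3.61-fold at D5 and 2.97-fold at D15 in *M. musculus* (31.3 to 113 and 92.9), and *Gbp7* rose 2.22-fold at D5 (155 to 345). Their shared component in *A. cahirinus* rose 1.46-fold at D5, from 236 to 346, and fell to 0.733 of D0 at D20. *Gbp5* was called on no day in *M. musculus*, at means between 115 and 162, and that gene number also held *Gbp2b* transcripts.

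All 6 members of the ISG15 and modifier group rose at D5 in *M. musculus* (against 16.5%), and 2 of 6 in *A. cahirinus* (33.3%, near the background of 30.4%). *Isg15*, the ubiquitin-like tag whose coding start is printed above, averaged 11, 54.9, 23.3, 26.9 and 15.5 in *M. musculus*, rising 5.01-fold at D5 and 2.46-fold at D15. Its *A. cahirinus* means were 11.3, 19.9, 10.1, 6.37 and 9.31, with no call (PPDE 0.188 at D5). D5 was the highest group in each species. *Usp18*, the protease that removes ISG15 and dampens the interferon receptor, rose 3.21-fold at D5 in *M. musculus* (14.4 to 46.0). In *A. cahirinus* it averaged 13.2, 9.13, 1.89, 6.53 and 7.03, below D0 on all 4 days with no call. *Trim25*, the ubiquitin ligase that activates RIG-I, rose 2.13-fold, 1.49-fold and 1.42-fold at D5, D10 and D15 in *M. musculus* (361 to 769, 539 and 514), and its *A. cahirinus* means of 287 to 383 held no call.

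*Dtx3l*, *Parp9* and *Parp14* encode a ubiquitin ligase and ADP-ribosyltransferases that act in interferon signalling. *Dtx3l* changed by like amounts in both species at D5, with a rise from 221 to 409 (1.85-fold) in *M. musculus* and one from 138 to 261 (1.89-fold) in *A. cahirinus*. It also rose 1.43-fold at D10 and 1.38-fold at D15 in *A. cahirinus*, which left it as the single member with a reciprocal component called higher there after D5. *Parp14* rose 2.00-fold in *M. musculus* (313 to 626) and 1.85-fold in *A. cahirinus* (284 to 526). *Parp9* rose 2.35-fold in *M. musculus* (149 to 351) and had a ratio of 1.33 with a PPDE of 0.774 in *A. cahirinus* (249 to 331).

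*Cxcl9* and *Cxcl10* encode the chemokines that draw CXCR3-bearing T and NK cells, and they are also part of the chemokine response to injury. *Cxcl9* averaged 8.06, 41.9, 53.6, 42.8 and 6.05 in *M. musculus*. Its 5.20-fold rise at D5 was called, and the larger ratio of 6.65 at D10 was not (PPDE 0.861). *Cxcl10* averaged 7.67, 34.0, 38.8, 16.4 and 5.41 in *M. musculus* with no call on any day (PPDE 0.895 at D5). These genes peaked at D10 by their means, later than 34 of the 37 members. *Cxcl9* in *A. cahirinus* averaged 7.80, 7.88, 6.56, 8.85 and 5.57, and no change was detectable at this depth.

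**Figure D3:**
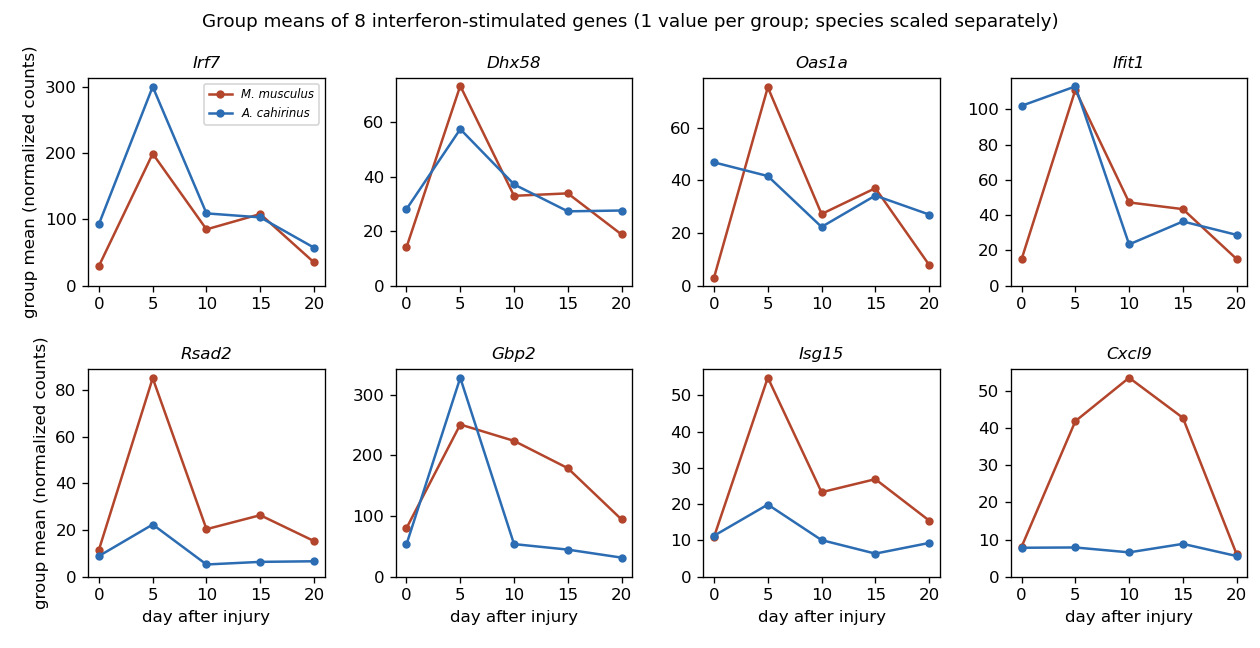
Group means in normalized counts (y axis, starting at 0) at D0 to D20 (x axis, days) of 8 members, 1 or more from each role. Each point is 1 group mean without an error bar, since values of single animals were not used, and the species are scaled separately. Levels can therefore be read within a species only. From D0 to D5, *Oas1a* goes from 3.08 to 75.3 in *M. musculus* and from 46.8 to 41.6 in *A. cahirinus*. *Ifit1* goes from 15.0 to 111 and from 102 to 113, and *Gbp2* peaks at D5 in both species.

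The calls at D10 in *M. musculus* were few for the size of the changes. Of 15 members with a log2 fold change of at least 1 and a mean of at least 10, 1 was called (6.67%), whereas 81.5% of all gene numbers with such changes were called. The shares were 23 of 25 members at D5 (92.0%, against 83.9%) and 9 of 16 at D15 (56.2%, against 78.2%). *Irf7* at a ratio of 2.85 (PPDE 0.285), *Gbp2* at 2.79 (PPDE 0.146) and *Oasl2* at 3.30 (PPDE 0.282) were among those not called at D10. The spread between the D10 animals was not analysed here.

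Set side by side, the *A. cahirinus* fold changes lay below those of *M. musculus* for most members on every day. Over the 27 members with reciprocal components, 23 were lower in *A. cahirinus* at D5, 25 at D10 and 24 at both D15 and D20. Of all pairs, 37.9%, 45.7%, 50.7% and 55.5% were lower in *A. cahirinus* on these days. The days of a species share its D0, so they are not independent. The median difference of the log2 fold changes (*A. cahirinus* minus *M. musculus*) was -1.35, -1.29, -1.31 and -0.56, beside 0.19, 0.06, -0.01 and -0.07 over all pairs. No test of this difference was made, since the species were normalized separately and no values per animal were used. At D5, 9 of the 27 reciprocal members (33.3%) rose in both species, compared with 15.4% of all pairs, namely *Irf1*, *Irf7*, *Stat2*, *Dhx58*, *Oasl1*, *Gbp2*, *Gbp7*, *Dtx3l* and *Parp14*. A further 15 (55.6%) rose in *M. musculus* and were not called in *A. cahirinus*, compared with 6.87% of all pairs. *Ddx58* alone of the 27 (3.70%, against 13.9% of all pairs) rose in *A. cahirinus* and was not called in *M. musculus*. A call in one species and not in the other is no test of the difference. The widest differences at D5 were -4.78 for *Oas1a*, -3.57 for *Ifi44*, -2.81 for *Oasl1* and -2.74 for *Ifit1*. The *M. musculus* D0 means of *Oas1a* (3.08), *Ifi44* (2.92) and *Oasl1* (0.763) were low. Their counting errors were 32.9%, 33.8% and 66.1%, so the size of these differences is uncertain. *Gbp2* (0.96) and *Ddx58* (0.59) lay on the other side. The D5 fold changes of the 27 members ran in no common order in the species (Spearman's rho 0.08, a description over genes that share libraries).

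**Figure D4:**
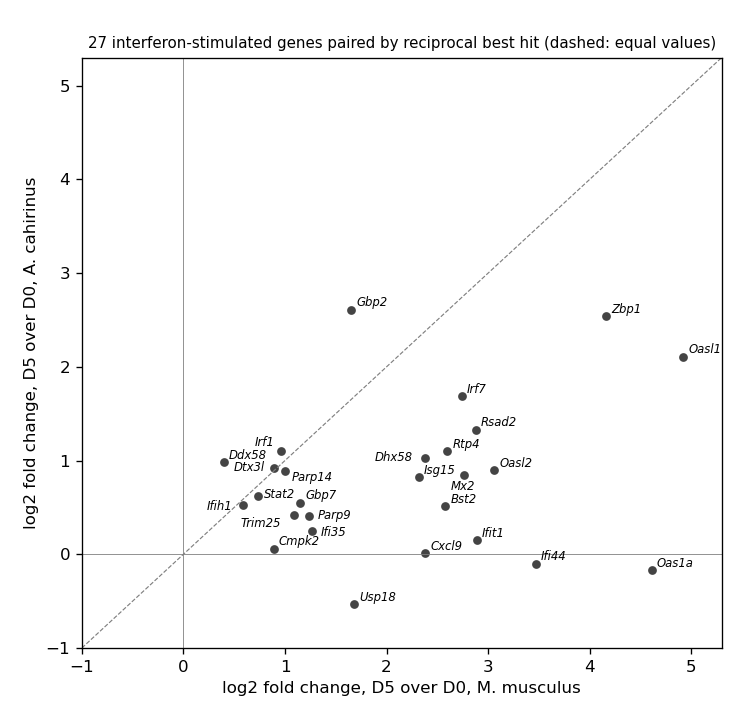
Log2 fold change at D5 over D0 in *M. musculus* (x axis) and *A. cahirinus* (y axis) for the 27 members paired by reciprocal best hit, each point 1 gene without an error bar. The dashed line marks equal values, and 23 of 27 points lie below it, compared with 37.9% of all pairs.

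The members also held different ranks in the uninjured ear. Ranked per kilobase among 14475 reciprocal pairs at D0, the median percentile of these members was 21.5 in *M. musculus*, compared with 33.5 in *A. cahirinus*, and 19 of 27 ranked higher in *A. cahirinus*, compared with 49.6% of all pairs. The median difference within members was smaller, at 5.19 percentile points, and 5 of 27 members ranked at least 20 points higher in *A. cahirinus*, compared with 11.2% of all pairs. *Mx2* stood farthest apart, at percentile 9.13 in *M. musculus* and 81.7 in *A. cahirinus*, and 0.276% of all pairs stood as many percentile points higher. *Gbp7* went from 31.4 to 64.2, *Ifi44* from 4.51 to 34.0, *Oas1a* from 6.12 to 29.8 and *Trim25* from 53.3 to 74.5. *Ddx58* ranked lower in *A. cahirinus*, at 39.9 against 70.7. The components of *Mx2*, *Gbp7* and *Oas1a* were also those of *Mx1*, *Gbp3*, and *Oas1b* with *Oas1g*. They were ranked beside the named *M. musculus* gene alone. Assembly length and read sharing between paralogs enter these ranks, and their part was not tested.

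Summed over the group, the means were 2.19 times D0 at D5 in *M. musculus*, going from 3069 to 6735, and stood at 1.42 times D0 at both D10 and D15 and 0.974 at D20. The sum of the antiviral effectors was 2.93 times D0 at D5, compared with 1.99 to 2.18 times for the other roles apart from the chemokines at 4.83 times. In *A. cahirinus* the sum went from 7698 to 10738 at D5 (1.39 times) and to 0.827, 0.805 and 0.739 of D0 later, and the component matched to *Oas3*, with a mean of 3697 at D0 and 2433 at D20, made up much of that sum. Without this component the sum went from 4002 to 6588 at D5 (1.65 times) and stood at 0.925, 0.992 and 0.814 of D0 on the later days, a step added after seeing the data.

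Other genes of the pathway were counted from lists written for the purpose. Each interferon gene with a value stayed under a mean of 10 in every group, and most had no *A. cahirinus* component. In *M. musculus*, *Ifng* averaged 0.698, 0.972, 1.52, 0.364 and 0.468, *Ifnk* averaged 9.17, 4.49, 3.54, 5.51 and 6.92, and *Ifnb1* was at 0 at D0, all named after their values were seen. Of the listed ligands and receptors, 4 of 11 rose (against 16.5%) and 1 fell (against 13.6%) at D5 in *M. musculus*. *Ifnar2*, a chain of the type I receptor, had the highest mean log2 fold change over the 4 days among those above a mean of 10 in *M. musculus* (0.68), and *Ifnlr1*, the receptor of interferon-lambda in epithelium, the lowest (-1.02). In *A. cahirinus*, 4 of 7 rose at D5 (against 30.4%), with *Ifngr2* highest (1.29) and *Ifnar1* lowest (-0.54), although the *Ifnar1* component had another gene as its own best hit. *Ifngr2*, a chain of the interferon-gamma receptor, averaged 201, 759, 455, 465 and 359 in *A. cahirinus* and rose on all 4 days.

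JAK-STAT signalling genes and their brakes rose at D5 in 9 of 11 cases in *A. cahirinus* (81.8%, against 30.4% of all picked components) and in 6 of 11 in *M. musculus* (54.5%, against 16.5% of all gene numbers), where 2 fell (18.2%, against 13.6%). *Socs3*, a feedback inhibitor induced by interleukin-6 family cytokines as well, averaged 101 at D0 and 1609 at D5 in *A. cahirinus* (mean log2 fold change over 4 days 2.57), and *Socs1*, the feedback inhibitor of interferon receptors, led in *M. musculus* (0.97). *Pias1* was lowest in both (-0.45 in *M. musculus* and -0.25 in *A. cahirinus*). Nucleic acid sensors and adaptors outside the 37 rose at D5 in 8 of 17 cases in *M. musculus* (47.1%, against 16.5%) and 10 of 17 in *A. cahirinus* (58.8%, against 30.4%). *Irf8* led in *M. musculus* (1.98) and *Aim2* in *A. cahirinus* (2.43), and *Mavs* (-0.51) and *Irf3* (-0.31) were lowest.

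On a further list of interferon-stimulated genes, 24 of 42 rose at D5 in *M. musculus* (57.1%, against 16.5%) and the median was 1.21. It included *Ifi47*, an immunity-related GTPase with the highest mean log2 fold change (2.58), and *Ifi27l2a* with the lowest (-0.63). In *A. cahirinus* 12 of 32 components rose (37.5%, near the 30.4% of picked components) and the median was 0.51, with *Samhd1* highest (2.44) and *Ifi44l* lowest (-0.66). The component of the listed *Oas1b* and *Oas1g* was that of *Oas1a*. Their *A. cahirinus* medians at D10 and D15 were 0.15 and 0.14, beside -0.07 and -0.09 for the 37, and 8 of 32 and 9 of 31 components rose on those days, against 21.0% and 18.2%. Their summed D5 means were 2.1 times D0 in *M. musculus* and 2.06 times in *A. cahirinus*. The largest gains in *A. cahirinus* were in the shared component of *Ifitm1*, *Ifitm2* and *Ifitm3* (2203 to 4812) and in *Parp10* (1365 to 2963). *Slfn2* came next (663 to 1937), although its component had another best hit. The largest gain in *M. musculus* was in *Samhd1* (384 to 1371). Of the antigen processing and presentation genes, 15 of 18 components rose at D5 in *A. cahirinus* (83.3%, against 30.4%, median 0.90) and 9 of 19 genes in *M. musculus* (47.4%, against 16.5%, median 0.39), and the difference between the species was not tested. The class II gene *H2-Aa* led in *A. cahirinus* (1.95) and *B2m* was lowest (-0.18), whereas *H2-D1* led in *M. musculus* (1.14) and *H2-Eb1* was lowest (-1.25).

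**Figure D5:**
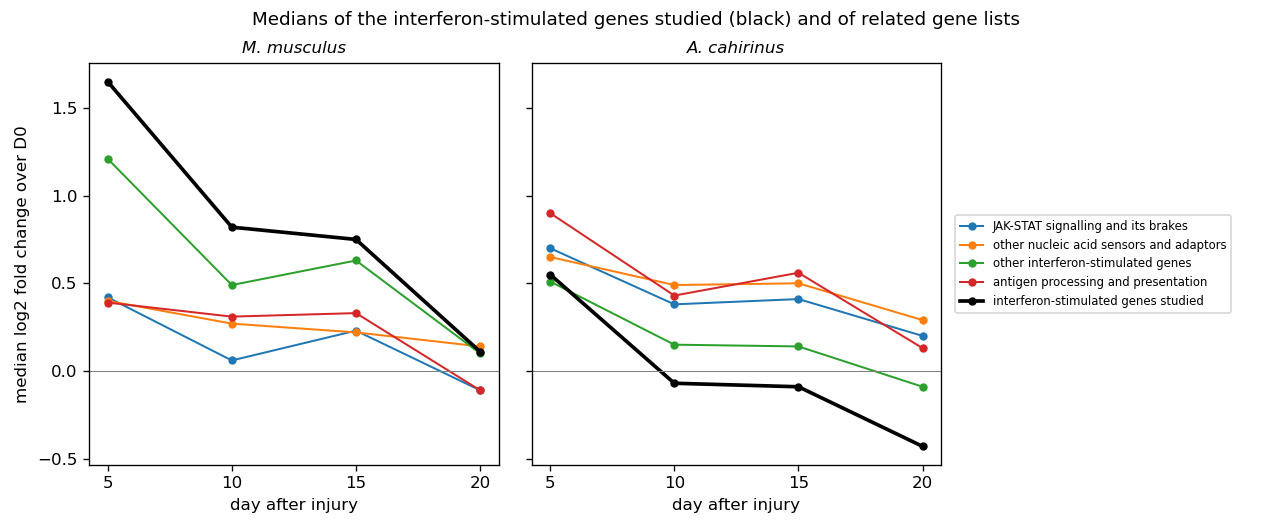
Median log2 fold change over D0 (y axis) on each day (x axis) of the interferon-stimulated genes studied (black) and of 4 related lists in each species. The list of interferon ligands and receptors is left out because every ligand with a value stayed under a mean of 10. The black line is the highest in *M. musculus* at D5 (1.65) and the lowest in *A. cahirinus* from D10 (-0.07).

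Whole ear tissue was measured, so fewer cells of a type and less RNA per cell cannot be told apart, and the cell mixture moved with the day. Of the macrophage markers, 12 of 14 rose at D5 in each species, against 16.5% of all gene numbers and 30.4% of picked components. The shares that fell were 13.6% and 11.1%, and all these shares also apply to the marker counts below. The summed macrophage means were 3.43 times D0 in *M. musculus* (2840 to 9729) and 3.25 times in *A. cahirinus* (8331 to 27076). At D20 the macrophage sum was still 2.35 times D0 in *M. musculus* and 1.03 times in *A. cahirinus*, while the sum of the interferon-stimulated genes was near or below D0 in both. T and NK cell markers summed to 1.32 times D0 at D5 in *M. musculus* (543 to 717, 3 of 13 rose, and *Ncr1*, *Gzma* and *Trac* were at 0 at D0) and to 1.79 times in *A. cahirinus* (744 to 1335, 3 of 11 rose). The *M. musculus* sum was carried by *Lck* (295 to 395) and *Cd4* (33.1 to 162). *Gzmb* also rose, with a log2 fold change of 3.70 from a low D0 mean of 0.763. *Ncr1* and *Gzma* reached 10.8 and 4.32 at D5 without a call. By contrast, *Cd3e*, of the T cell receptor complex, fell from 55.7 to 22.8 (PPDE 0.979). Of the 13 *M. musculus* markers, 7 lay above D0 and 6 below. Most of the *A. cahirinus* sum was *Lck* (603 to 1050), and 8 of the 11 markers lay above D0 and 3 below. Markers of plasmacytoid dendritic cells, the main source of type I interferon in blood, summed to 0.991 times D0 in *M. musculus* and 1.33 times in *A. cahirinus*, where the defining *Siglech* was at 0 at D0, and that list includes *Bst2*. Most of the *M. musculus* sum was *Ly6d* (2999 to 2938) and *Tcf4* (2012 to 1483), while 3 of the 7 markers rose, 1 fell, the median log2 fold change was 1.70 and *Siglech* went from 8.74 to 29.0. The *A. cahirinus* sum turned with *Ly6d* (1634 to 3746), whose component had another best hit. Without *Ly6d*, left out after seeing the data, it was 0.817 times D0. Of the 7 *A. cahirinus* markers 2 rose, *Ly6d* and *Irf8* (54.9 to 368), and 1 fell, *Tcf4* (1660 to 1107). The median log2 fold change of these 7 was 0.51. Conventional dendritic cell markers summed to 1.35 times D0 at D5 in *M. musculus* and 6.03 times in *A. cahirinus*, where *Cd209a* alone went from 221 to 1824. Without *Cd209a*, left out after seeing the data, the ratios were 1.49 and 1.75. These rested mostly on *Itgax* in *M. musculus* (77.0 to 168) and on *Flt3* in *A. cahirinus* (19.6 to 94.3). On the full list 1 of 7 rose in *M. musculus* (median log2 fold change 0.03) and 3 of 7 in *A. cahirinus* (median 2.26).

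Neutrophil markers summed to 12 times D0 at D5 in *M. musculus* (381 to 4547) and 19.2 times in *A. cahirinus* (59.5 to 1141), with no *A. cahirinus* component for 6 of the 10 listed markers, among them *S100a8* and *S100a9*. Without this pair, left out after seeing the data, the *M. musculus* sum was 1.94 times D0 (370 to 718), so the 12 and 19.2 times come from unlike marker sets. In *M. musculus* 4 of 8 rose and *Mpo* fell, and in *A. cahirinus* 2 of 4 rose. Keratinocyte markers summed to 3.04 and 2.92 times D0, but in *M. musculus*, where *Krt1* went from 1774 to 84089, *Trp63* and *Col17a1* fell. The fibroblast sum was 4.08 times D0 at D5 in *M. musculus* and 0.933 times in *A. cahirinus*, where it followed *Dcn* (13925 to 9082) and *Col1a1* (6433 to 4313) while 3 of 6 markers rose and 1 fell. The cartilage sum was 0.575 and 0.657 times D0, and in *M. musculus* it followed *Acan* (3678 to 1419) while 3 of 5 markers rose and 2 fell. Summed keratinocyte, fibroblast and cartilage markers were at least 2775 in every group, as in ear tissue. The part of these shifts in the changes of the interferon-stimulated genes was not tested.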

How the data were processed

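RNA from the ear of both species was sequenced in 10 groups, with 3 animals per group by the methods. The authors counted reads with RSEM, on mm10 gene annotations for *M. musculus* and on a *de novo* assembly for *A. cahirinus*, and compared each day with D0 in EBSeq. The 8 deposited tables hold the authors' own comparisons and no values per animal: a posterior probability, which is a score, and 2 fold changes, each a ratio. These columns were used because the genes have no other deposited value, and no test was added. Because the 2 fold changes of a table add different constants, they were solved for the 2 group means, and the D0 means from the 4 tables of a species agreed within 0.0044 on the log2 scale once a constant offset per table was removed, which also fixed the direction. Means were set on the scale of the D5 table. Per the deposited BLASTN table, identity is in percent, with alignment length in bases and a bit score in a unit recorded as other.

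*M. musculus* gene numbers were named by placing transcript sequences of the deposited reference along the GRCm38 annotation. Of 1992 known numbers held out, 98.6% were placed right. The placement was adjusted on the same known numbers, so that share is optimistic. An *A. cahirinus* component was the top bit score below 99% identity, and reciprocal means that the component's own best hit was the gene. The members and lists were chosen with earlier results of these data known. From each list outside the members, the genes with the highest and lowest mean log2 fold change were named where a group mean reached 10. Alternatives were a threshold of 0.99, a least log2 fold change of 1, a least mean of 10, other choices of component, the posterior fold change, a pseudocount of 1 and centring. Recovery of means was tested on simulated data. Python 3.11.15, NumPy 2.4.6, pandas 2.3.3, SciPy 1.17.1 and matplotlib 3.10.9 were used. One gene of the pathway lists is not reported here.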

Additional observations from a re-analysis of the deposited data

Results flagged for a closer look

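For 3 members every day lay above D0 in *M. musculus* and below D0 in *A. cahirinus*. *Ifit2* did so narrowly, with log2 fold changes of -0.01 at D5 in *A. cahirinus* and 0.06 at D20 in *M. musculus*. The share of all pairs with this pattern is not given here, and the 4 days of a species share its D0. The mean log2 fold change over the 4 days (*A. cahirinus* minus *M. musculus*) was -3.79 for *Oas1a*, -2.70 for *Ifi44* and -1.30 for *Ifit2*, and without D15 it was -3.71, -2.61 and -1.23. None of the *A. cahirinus* days was called for *Oas1a* or *Ifi44*, and the component of *Ifit2* is shared with *Ifit3* and had *Ifit3b* as its best hit. The component of *Oas1a* was also that of *Oas1b* and *Oas1g*. In *M. musculus* these went from 27.1 to 42.3 and from 4.38 to 36.4 at D5. The *M. musculus* D0 means of *Oas1a* (3.08) and *Ifi44* (2.92) were low, with counting errors of 32.9% and 33.8%. The difference between the species was not tested.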

How the results depend on the processing

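Most results kept their direction under the alternatives. Leaving out D15 turned the sign of some 4-day means near 0. The difference between species went from -0.09 to 0.01 for *Ddx58* and from 0.01 to -0.03 for *Ifih1*. The *A. cahirinus* mean log2 fold change of *Isg15* went from -0.11 to 0.12, and that of *Rsad2* from -0.08 to 0.05. All medians of the members and of the difference between species moved by less than a factor of 1.5 as unlogged fold changes, and the median log2 fold change in *A. cahirinus* at D5 ranged from 0.33 (centred on the median of features with a mean of at least 10) to 0.82 (reciprocal best hits). Counts of calls were less stable. A least log2 fold change of 1 lowered the risen components in *A. cahirinus* to 5 at D5, 0 at D10 and 0 at D15, lowered the fallen ones to 1, 0 and 1 at D10, D15 and D20, and left 0 fallen in *M. musculus* at D20. With reciprocal best hits alone, *A. cahirinus* had 1 risen and 1 fallen at D10, 1 risen and 0 fallen at D15 and 2 fallen at D20. A threshold of 0.99 left 1 risen at D10 in *M. musculus*. The background shrank as well under the fold cut. Of picked components with a mean of at least 10, 4508 rose at D5 in *A. cahirinus*, and 1639 did so with a log2 fold change of at least 1. Shares of all features under the other settings are not given here, so these counts describe stability alone. With a pseudocount of 1, *Oasl1* in *M. musculus* had log2 fold changes of 3.79, 1.88, 2.75 and 0.83 at D5 to D20, a result of its low D0 mean. No paired analysis was possible because the deposited tables hold values pooled over animals, and for the same reason no replicate was left out in turn. A mean of 10 carries a counting error of 18.3%, so changes of *Cxcl9* and *Zbp1* in *A. cahirinus* were at the limit of what this depth shows.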
